A study of Mus musculus with 16 samples.

Results

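The unfolded protein response and the integrated stress response were followed in 4T07 cells through 32 genes, taken by gene symbol from the 49139 named genes of the count tables. They comprise 15 targets of the transcription factor ATF4, 11 chaperones and folding factors of the endoplasmic reticulum (ER), 2 genes of ER-associated degradation, and 4 sensors or transcription factors. 4T07 is a mouse mammary carcinoma line. Cells transduced with GFP or with mCherry were mixed 1:1 and injected into the mammary fat pad of female hybrids of Balb/cJ and C57BL/6J mice. T cells from Jedi mice, whose receptor recognises GFP, and which here lacked PD1, were injected once tumours had grown for 7 days (called day 7) or 15 days (day 15). Tumours were harvested 7 days after the injection. Surviving GFP cells and bystander mCherry cells were sorted from the same tumours, with 3 tumours for each injection day. Another 4 tumours of mCherry cells alone, without GFP cells and without Jedi cells, served as controls. The labels give no harvest day for these control tumours. No group held GFP cells from a tumour without Jedi cells, so that the reporter and the T cell attack cannot be told apart in any contrast of GFP with mCherry cells. The ages of the mice, the numbers of clones behind the transduced cells and the gate on CD45 are not known from the sources used here.

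The unfolded protein response starts when unfolded proteins build up in the ER and activate the membrane sensors ATF6, IRE1 and PERK. ATF6 and IRE1 (encoded by Ern1), the latter through splicing of Xbp1 RNA, raise the transcription of ER chaperones and degradation factors. PERK, like the other kinases of eIF2α, lowers general translation and raises that of ATF4, which induces genes of amino acid uptake and synthesis together with Ddit3 (CHOP), Trib3 and Chac1. The integrated stress response is this eIF2α and ATF4 branch, which amino acid shortage, haem shortage and double-stranded RNA can start without unfolded protein in the ER. Both responses are known in tumours short of nutrients or oxygen. The counts used here are per gene, so that neither Xbp1 splicing nor the translation of Atf4 was measured.

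The branches are usually told apart by sequences in the promoters of their target genes. The promoters of the members were searched for these sequences before the expression values are given. The motifs were the C/EBP-ATF response element, CARE (TGATGNAA), which ATF4 binds with C/EBP partners, the ER stress response element, ERSE (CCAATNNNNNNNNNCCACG), which ATF6 binds with NF-Y, its variant ERSE-II (ATTGGNCCACG) and the unfolded protein response element, UPRE (TGACGTGG), which XBP1 binds. Both strands were searched in RefSeq windows (GRCm38.p6) from 250 bases before to 50 bases after the annotated start, which were given for 29 of the 32 genes. CARE was found in 6 of 14 ATF4 targets, namely Asns, Chac1, Nupr1, Pycr1, Trib3 and Vldlr, against 4.51% of 27025 genes with such a window. ERSE was found in 7 of 10 ER chaperones, namely Calr, Canx, Creld2, Dnajc3, Hsp90b1, Hspa5 and Pdia6, against 0.137% of all genes. Herpud1 held a CARE match and an ERSE-II match, the latter found in 0.0444% of all genes. No ER chaperone held CARE, no ATF4 target held ERSE, and UPRE, found in 0.714% of all genes, was in no member's window. Slc7a5, Manf and Atf6 had no window. The 250 bases before the start of 7 members are shown 5′ to 3′ with every match in capitals: 3 ATF4 targets with CARE, Herpud1 with both kinds of match, and 3 ER chaperones with ERSE, of which Hspa5 is the classical one, Hsp90b1 has a match on each strand and Dnajc3 was lower in GFP cells on both days.
Asns (chr6:7693210-7693459, minus strand): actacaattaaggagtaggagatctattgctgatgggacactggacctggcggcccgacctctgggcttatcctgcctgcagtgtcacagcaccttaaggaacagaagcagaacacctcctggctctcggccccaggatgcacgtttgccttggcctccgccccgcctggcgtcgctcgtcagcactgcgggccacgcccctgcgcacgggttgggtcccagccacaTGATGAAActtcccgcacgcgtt
Chac1 (chr2:119350992-119351241, plus strand): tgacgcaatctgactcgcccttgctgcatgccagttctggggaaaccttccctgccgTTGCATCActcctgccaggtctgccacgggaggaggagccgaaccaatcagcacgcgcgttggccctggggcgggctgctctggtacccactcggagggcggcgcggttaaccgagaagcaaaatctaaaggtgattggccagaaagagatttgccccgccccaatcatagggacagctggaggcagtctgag
Nupr1 (chr7:126625471-126625720, minus strand): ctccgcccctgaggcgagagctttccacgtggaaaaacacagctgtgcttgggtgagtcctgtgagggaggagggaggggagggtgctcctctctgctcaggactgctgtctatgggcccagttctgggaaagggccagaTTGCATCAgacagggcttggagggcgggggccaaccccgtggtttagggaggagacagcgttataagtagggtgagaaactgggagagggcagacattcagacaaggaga
Herpud1 (chr8:94386179-94386428, plus strand): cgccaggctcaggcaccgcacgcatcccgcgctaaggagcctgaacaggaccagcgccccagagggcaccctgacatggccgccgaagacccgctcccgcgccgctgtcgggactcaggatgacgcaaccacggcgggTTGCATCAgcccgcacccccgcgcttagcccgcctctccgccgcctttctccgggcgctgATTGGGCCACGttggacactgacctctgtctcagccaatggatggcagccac
Hspa5 (chr2:34771840-34772089, plus strand): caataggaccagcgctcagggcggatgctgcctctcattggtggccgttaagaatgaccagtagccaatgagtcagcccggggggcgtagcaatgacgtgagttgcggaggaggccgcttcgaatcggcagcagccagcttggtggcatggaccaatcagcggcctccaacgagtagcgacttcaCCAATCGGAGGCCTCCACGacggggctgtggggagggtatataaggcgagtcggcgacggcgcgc
Hsp90b1 (chr10:86705445-86705694, minus strand): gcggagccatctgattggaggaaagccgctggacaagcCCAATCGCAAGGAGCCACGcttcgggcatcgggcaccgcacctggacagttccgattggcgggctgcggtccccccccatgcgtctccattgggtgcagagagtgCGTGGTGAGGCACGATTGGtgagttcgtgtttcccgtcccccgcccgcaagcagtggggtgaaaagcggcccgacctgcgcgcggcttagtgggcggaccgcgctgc
Dnajc3 (chr14:118937682-118937931, plus strand): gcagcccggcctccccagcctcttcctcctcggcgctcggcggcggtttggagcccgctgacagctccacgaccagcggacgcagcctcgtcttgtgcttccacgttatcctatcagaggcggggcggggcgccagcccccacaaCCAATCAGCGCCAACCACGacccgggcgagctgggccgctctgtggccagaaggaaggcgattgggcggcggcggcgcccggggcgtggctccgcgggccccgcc

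The CARE match began at position −23 in Asns, −193 in Chac1, −110 in Nupr1 and −112 in Herpud1, counted from the annotated start. The ERSE match of Hspa5 began at −65 and that of Dnajc3 at −105. A match of letters is a description of these windows and not evidence that a factor was bound there in these cells.

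**Figure D1:**
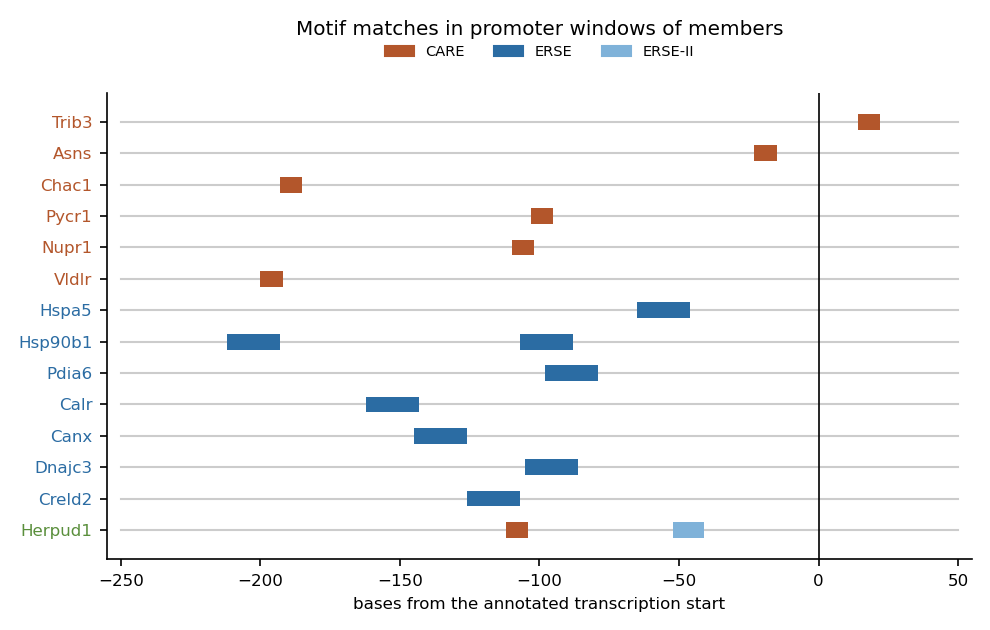
Motif matches in the promoter windows of the 14 members with at least 1 match. Each grey line is a window from 250 bases before to 50 bases after the annotated transcription start (x axis, bases from the start), and each bar is a match on either strand, drawn to scale. CARE matches lie in the ATF4 targets and Herpud1, ERSE matches in the ER chaperones.

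The 16 libraries held 9412040 to 32808354 counts in named genes, the lowest in day 7 GFP cells, and 1.12% to 2.00% of counts were mitochondrially encoded. All day 7 libraries came from sequencing run 1 and all others from run 2, so that day and run cannot be told apart. GFP cells carried fewer counts of macrophage and endothelial markers than the mCherry cells sorted beside them. The macrophage markers summed to 99.7 to 168 CPM (counts per 1000000 counts in named genes) in day 7 GFP cells against 583 to 834 in day 7 mCherry cells, with 9 of 9 markers called lower, and to 51.8 to 70.5 against 86.0 to 105 on day 15, with 5 of 8 tested markers called lower. Most of the day 15 sum was Cd14, which averaged 43.3 CPM in GFP cells against 76.3 CPM in mCherry cells. Cd68 lay the other way there, at 9.53 against 6.00 CPM on average, with 0 macrophage markers called higher. The endothelial markers summed to 6.73 to 8.29 against 27.7 to 56.9 CPM on day 7 (8 of 8 called lower) and to 11.9 to 15.0 against 16.1 to 38.3 CPM on day 15 (4 of 8). Fibroblast and pericyte markers did not follow. On day 7 they summed to 809 to 824 CPM in GFP cells against 679 to 851 CPM in mCherry cells, with 0 called higher and 1 lower. On day 15 the sums were 1349 to 1540 against 991 to 1375 CPM, with 1 called higher and 2 lower. There Dcn averaged 716 CPM in GFP cells against 308 CPM, but Col1a1 20.4 against 126 CPM. Neutrophil markers summed to at most 38.6 CPM in every library. Markers of T and NK cells summed to at most 5.52 CPM and of B and plasma cells to at most 4.26 CPM in every library. Of the carcinoma markers, Krt8 averaged 363 to 826 CPM over the groups, while Epcam (0.954 to 1.61 CPM) and Krt19 (0.412 to 2.20 CPM) were close to 0. The 5 carcinoma markers summed to 465 to 689 CPM in day 7 GFP cells against 987 to 1412 CPM in day 7 mCherry cells, and to 450 to 529 against 614 to 937 CPM on day 15, with 1 called higher and 2 called lower on each day. On day 7 Krt18 averaged 117 CPM in GFP cells against 387 CPM in mCherry cells, and Cdh1 26.2 against 6.82 CPM. The part of other cells in the differences below was not tested. In bulk RNA, fewer cells that express a gene and less RNA of it per cell cannot be told apart.

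Compared per length, as CPM per kilobase of exon, Hspa5 stood above every other member in all 5 groups. This gene encodes BiP, the main Hsp70 chaperone of the ER. Its mean level was 1587 ± 161 CPM per kb (SD, n = 3) in day 7 GFP cells, 1467 ± 147 (n = 3) in day 7 mCherry cells, 1110 ± 90.6 (n = 3) in day 15 GFP cells, 1102 ± 91.8 (n = 3) in day 15 mCherry cells and 918 ± 90.1 (n = 4) in controls. The next 4 places went to Hsp90b1 (GRP94), Calr (calreticulin) and the disulphide isomerases Pdia6 and Pdia4 in every group but day 7 mCherry cells, where Nupr1 stood above Hsp90b1, Pdia4 and Calr. Neighbours in this order were often within each other's spread: in day 7 GFP cells Pdia6 was at 486 ± 44.6, Hsp90b1 at 471 ± 57.8 and Pdia4 at 427 ± 20.2 CPM per kb (SD, n = 3). The kinase and nuclease gene Ern1 was among the lowest, with 1.79 CPM per kb in both day 7 groups. Vldlr, a lipoprotein receptor gene, was at or near 0: its highest value in any library was 1.28 CPM, and it had too few counts to be tested in both contrasts of GFP with mCherry cells and in that of GFP cells with controls. The 11 ER chaperones together took 1.25% to 1.58% of all counts in day 7 libraries, 1.10% to 1.22% in day 15 libraries and 0.929% to 1.14% in controls, Hspa5 alone 0.351% to 0.745%.

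In tumours injected on day 7, ATF4 targets were higher in GFP cells than in the mCherry cells of the same tumours, and ER chaperones as a group were not. With edgeR's quasi-likelihood test, tumour as a block and an adjusted p of 0.05 over all genes as the threshold for a call, 10 of the 31 members tested rose, where 8.89% of all 14578 genes tested did, and 1 fell, where 9.33% of all genes did. Of 14 ATF4 targets tested, 9 rose and 5 did not pass, with a median log2 fold change of 0.59, against a median of −0.0037 over all genes tested. Of 11 ER chaperones, 1 fell and 10 did not pass with edgeR, and the median was 0.07. An unadjusted p under 0.05 was found for 3 of the 11, beside 32.1% of all genes tested, and DESeq2 called Calr higher as well. The pairing of day 7 libraries by tumour, in the block and below, rests on column numbers and is not given by the labels. Counted by tumour, 13 of 14 ATF4 targets were higher in GFP cells in all 3 tumours, as were 26% of all genes tested. Slc7a5 is among the 13 with differences close to 0 (0.008, 0.086 and 0.0015 in log2 CPM). For ER chaperones the count was 3 higher and 3 lower of 11, and 26.3% of all genes were lower in all 3 tumours.

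**Figure D2:**
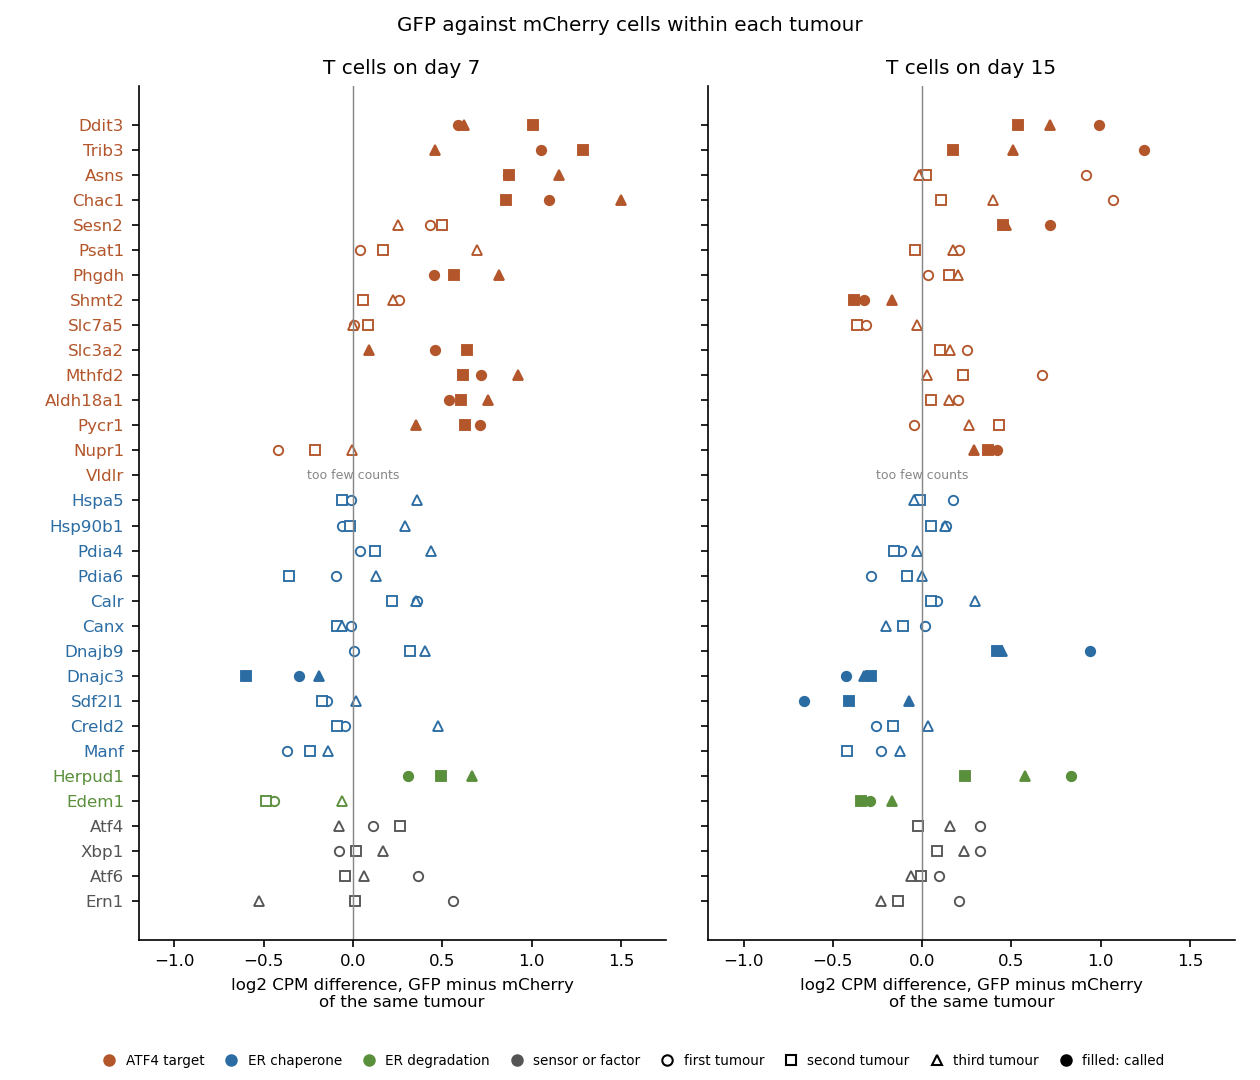
Difference in log2 CPM between GFP and mCherry cells of the same tumour (x axis) for each member (y axis, coloured by role), with T cells injected on day 7 (left) or day 15 (right). Each tumour has its own marker shape, with day 7 pairs taken from column numbers, and filled markers belong to genes called at an adjusted p of 0.05. On day 7, 13 of 14 ATF4 targets lie above 0 in all 3 tumours (Slc7a5 only just), while 3 of 11 ER chaperones do.

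Chac1 had the largest difference among the members. It encodes an enzyme that degrades glutathione, and lies at chr2:119351229-119354381 (plus strand, GRCm38). Its level was 40.6, 34.6 and 50.2 CPM in the GFP cells of tumours 2, 3 and 4 (numbered as in the count columns), and 19.2, 18.9 and 16.8 CPM in the mCherry cells of the same tumours. Every GFP library lay above every mCherry library, and the gene rose 2.23-fold (log2 fold change 1.16, SE 0.15, adjusted p = 7.29e-04, edgeR quasi-likelihood test). Asns, which encodes asparagine synthetase (chr6:7675169-7693254, minus strand), was at 174, 159 and 188 CPM in GFP cells and at 96.9, 86.3 and 80.5 CPM in mCherry cells. The groups did not overlap, and it rose 1.95-fold (log2 fold change 0.96, SE 0.10, adjusted p = 2.41e-04, edgeR). Trib3, a pseudokinase gene that CHOP and ATF4 induce (chr2:152337422-152344032, minus strand), was at 102, 119 and 58.3 CPM against 49.9, 48.1 and 40.3 CPM. Its rise of 1.92-fold (adjusted p = 0.00230, edgeR) was smaller in tumour 4 than in the others. Ddit3, the gene of the transcription factor CHOP (chr10:127290774-127296288, plus strand; 6.13% of its exon bases lie in another GENCODE record of the same name), was at 65.6, 82.3 and 51.5 CPM against 44.3, 40.7 and 31.8 CPM. It rose 1.67-fold (log2 fold change 0.74, SE 0.12, adjusted p = 0.00266, edgeR), and its groups did not overlap either.

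Of the amino acid and one-carbon enzymes and transporters among the ATF4 targets, Mthfd2, Phgdh, Aldh18a1, Pycr1 and Slc3a2 rose too, and Psat1, Shmt2 and Slc7a5 did not pass. Mthfd2, a mitochondrial folate enzyme, rose by 0.75 ± 0.10 (log2 fold change ± SE) from a mean of 67.8 ± 1.04 to 117 ± 18.1 CPM (SD, n = 3). Phgdh, the first enzyme of serine synthesis, rose by 0.61 ± 0.11, from 239 ± 21.8 to 369 ± 26.0 CPM. Aldh18a1 and Pycr1, which make proline, rose by 0.63 ± 0.10 and 0.57 ± 0.14, and Slc3a2, the heavy chain of several amino acid transporters, by 0.40 ± 0.12 with an adjusted p of 0.0461 (edgeR). Slc3a2 lost its call without the block (adjusted p = 0.0657), with a filter of 50 counts and without tumour 2 or 3, and Pycr1 lost its call without tumour 2 or 3. Psat1, which follows Phgdh in serine synthesis, stood at 135, 142 and 198 CPM against 134, 126 and 116 CPM and did not pass (log2 fold change 0.30, adjusted p = 0.144, edgeR). Sesn2 (0.40, adjusted p = 0.119), Shmt2 (0.18) and Slc7a5, the light chain partner of Slc3a2 (0.03), did not pass either. Nupr1, a stress-induced chromatin protein gene, was the ATF4 target with a negative value (−0.21, adjusted p = 0.219), at 996, 988 and 1100 CPM in GFP cells against 1353, 1140 and 1051 CPM.

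Among the ER chaperones on day 7, levels in GFP and mCherry cells overlapped for the most abundant. Hspa5 was at 6586, 6101 and 7446 CPM in GFP cells and 6745, 6338 and 5524 CPM in mCherry cells (log2 fold change 0.10, SE 0.12, adjusted p = 0.627, edgeR). The GFP library was below its partner in tumours 2 and 3 and above it in tumour 4. Dnajc3, which encodes the co-chaperone p58IPK, was the chaperone gene that fell, from 202, 204 and 204 CPM in mCherry cells to 161, 136 and 188 CPM in GFP cells (log2 fold change −0.36, SE 0.11, adjusted p = 0.0460, edgeR). The groups did not overlap, but the call was lost without the block (adjusted p = 0.0748), with DESeq2's size factors and without tumour 2 or 3. Calr, with 1234, 1242 and 1243 CPM against 978, 1064 and 926 CPM, missed the threshold (0.31, adjusted p = 0.0577, edgeR). Without tumour 4, whose mCherry library stood furthest from the others of its group, 11 members rose and 5 fell: Calr joined the rises, and Nupr1, Pdia6, Manf and Edem1 the falls. Calls grew over all genes too: that fit called 2240 of 14784 genes higher and 2318 lower, against 1296 and 1360 of 14578 in the reported fit. The added calls are therefore not particular to the members.

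Herpud1 did not follow the chaperones. It encodes an ER membrane protein of the degradation machinery (chr8:94386438-94395377, plus strand), and its promoter window holds both a CARE and an ERSE-II match, as shown above. On day 7 it was at 116, 128 and 126 CPM in GFP cells against 95.0, 90.4 and 75.9 CPM in mCherry cells, and rose by 0.49 ± 0.10 (adjusted p = 0.0105, edgeR), with an adjusted p of 0.0925 without tumour 3. Edem1, a lectin that passes misfolded glycoproteins to degradation, was at 128, 117 and 153 CPM against 177, 163 and 152 CPM, a difference that missed the threshold (−0.33, adjusted p = 0.0702, edgeR). The 4 sensors and factors did not pass, and 0 of them had an unadjusted p under 0.05 or were called by DESeq2: Atf4 differed by 0.10 ± 0.11, Atf6 by 0.13 ± 0.12, Xbp1 by 0.03 ± 0.10 and Ern1 by 0.01 ± 0.21. Atf4 RNA was at 226, 242 and 220 CPM in GFP cells and 213, 201 and 221 CPM in mCherry cells.

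**Figure D3:**
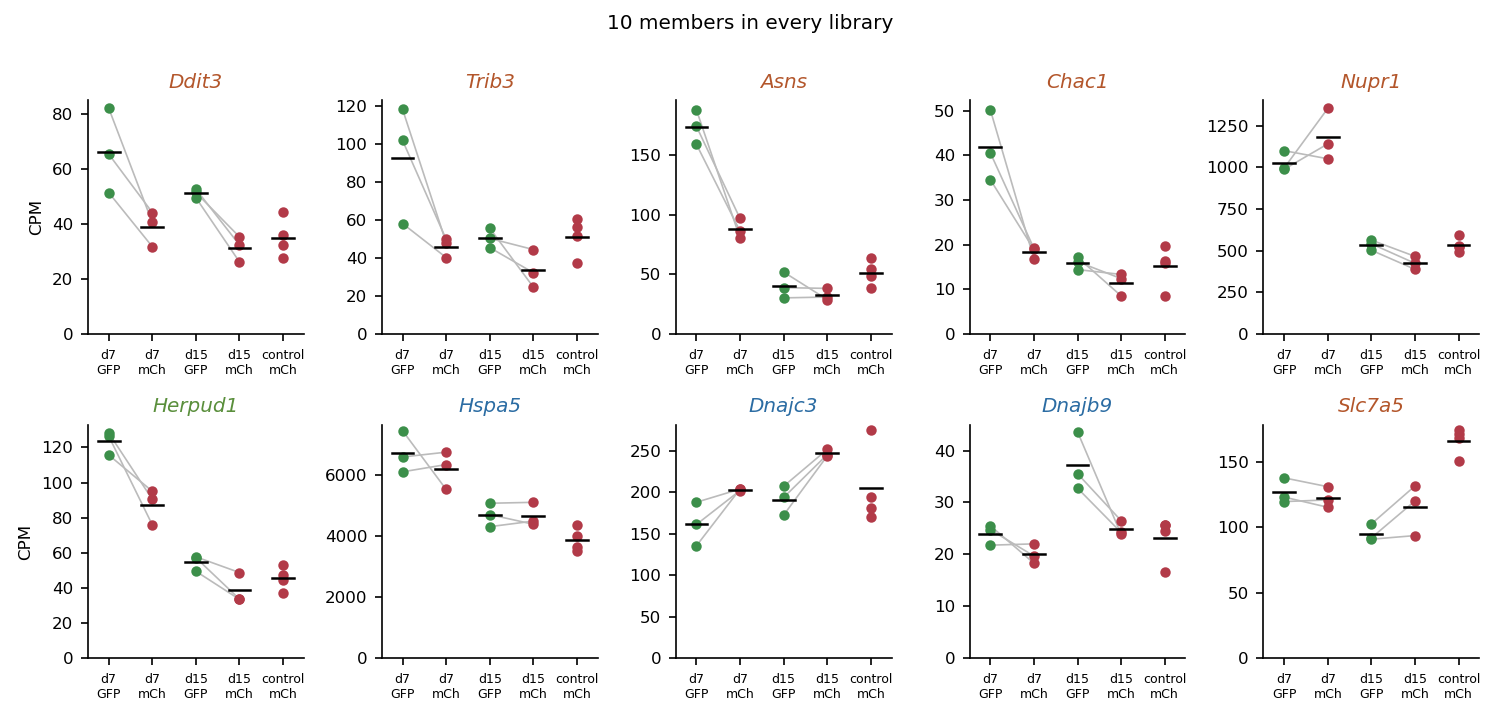
CPM of 10 members in every library (y axes start at 0), by group: day 7 (d7) and day 15 (d15) GFP cells in green, mCherry (mCh) cells in red. Grey lines join the libraries of 1 tumour, taken from column numbers on day 7, and black bars are group means. Asns spans 159 to 188 CPM in day 7 GFP cells and 30.3 to 52.0 CPM in day 15 GFP cells, Slc7a5 is highest in the controls (151 to 174 CPM), and Dnajc3 is lower in GFP than in mCherry cells in each of the 6 mixed tumours.

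In tumours injected on day 15, Ddit3 and Trib3 were again higher in GFP cells, Sesn2 and Nupr1 were higher as well, and none of the amino acid enzymes that rose on day 7 passed the test. Of 31 members tested, 6 rose, where 8.94% of all 14260 genes tested did, and 4 fell, where 10.6% did. Of 14 ATF4 targets, 4 rose (Ddit3, Trib3, Sesn2 and Nupr1) and 1 fell (Shmt2), with a median log2 fold change of 0.26 against 0.0065 over all genes. Of 11 ER chaperones, Dnajb9 rose, Dnajc3 and Sdf2l1 fell, and the median was −0.10. In all 3 tumours, 9 of 14 ATF4 targets were higher and 2 were lower in GFP cells, where 27.3% of all genes tested were higher and 27.5% lower. For ER chaperones these counts were 3 and 5 of 11.

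Ddit3 was the member with the smallest p on day 15. It was at 49.7, 51.6 and 52.8 CPM in the GFP cells of tumours 1, 2 and 3 and at 26.2, 35.4 and 32.4 CPM in their mCherry cells, without overlap, and rose 1.68-fold (log2 fold change 0.75, SE 0.10, adjusted p = 0.00111, edgeR). These numbers are again those of the count columns: the labels call these tumours 4, 5 and 6, and they are not the day 7 tumours. Sesn2, which encodes an inhibitor of mTORC1 signalling, rose by 0.55 ± 0.13 (adjusted p = 0.0143, edgeR), at 17.4, 19.3 and 15.6 CPM against 11.1, 14.0 and 11.3 CPM, again without overlap. Nupr1 rose by 0.36 ± 0.08 (adjusted p = 0.0136, edgeR), at 541, 503 and 563 CPM against 424, 388 and 466 CPM, and lost its call when tumour 2 or tumour 3 was left out (adjusted p = 0.0593 and 0.0617). The 3 GFP libraries of Nupr1 lay above all 3 mCherry libraries, where on day 7 the groups had overlapped. Trib3 stood at 55.8, 50.4 and 45.6 CPM against 24.7, 44.5 and 32.3 CPM. Its rise of 1.55-fold (adjusted p = 0.0235, edgeR) was 1.24 on the log2 scale in tumour 1, 0.17 in tumour 2 and 0.51 in tumour 3, and the call was lost without the block (adjusted p = 0.0697).

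The amino acid enzymes that rose on day 7 did not pass on day 15. Asns was at 52.0, 38.9 and 30.3 CPM in GFP cells and at 28.9, 38.3 and 31.0 CPM in mCherry cells, so that tumour 1 alone differed by 0.91 on the log2 scale and the other tumours by 0.02 and −0.02 (fit 0.30, SE 0.16, adjusted p = 0.223, edgeR). Chac1, at 17.2, 14.4 and 16.2 CPM against 8.54, 13.3 and 12.4 CPM, did not overlap but missed the threshold (0.52, SE 0.18, adjusted p = 0.0685, edgeR). Phgdh (0.13, SE 0.08), Aldh18a1 (0.14, SE 0.08) and Pycr1 (0.22, SE 0.15) also missed it. With no filter on low counts Asns, Chac1 and Mthfd2 were called higher, and without tumour 2 Asns and Chac1 were. Shmt2, the mitochondrial serine hydroxymethyltransferase, fell from 76.6, 77.0 and 78.6 to 58.3, 59.2 and 69.3 CPM (−0.29, SE 0.09, adjusted p = 0.0386, edgeR), a call lost with DESeq2 (adjusted p = 0.0672), without the block (adjusted p = 0.0551) and without tumour 2 or 3.

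Dnajb9, which encodes ERdj4, a co-chaperone that binds IRE1, was the chaperone gene that rose on day 15, at 43.6, 35.5 and 32.8 CPM in GFP cells against 23.9, 26.5 and 24.2 CPM in mCherry cells. The groups did not overlap (log2 fold change 0.60, SE 0.12, adjusted p = 0.00652, edgeR). Dnajc3 fell again, from 244, 252 and 246 CPM to 173, 207 and 194 CPM (−0.35, SE 0.08, adjusted p = 0.0127, edgeR), with its call lost without tumour 3 (adjusted p = 0.0689). Sdf2l1, a cofactor of BiP, fell by 0.38 on the log2 scale (SE 0.11, adjusted p = 0.0375, edgeR), a call lost without the block (adjusted p = 0.148) and without tumour 1 or 2. Herpud1 rose by 0.55 ± 0.12 (adjusted p = 0.00892, edgeR), at 57.2, 57.7 and 49.5 CPM against 33.7, 48.8 and 33.5 CPM, with an adjusted p of 0.0504 without the block. Edem1 fell from 157, 168 and 151 CPM to 122, 133 and 133 CPM (−0.27, SE 0.08, adjusted p = 0.0376, edgeR), a call lost with DESeq2 (adjusted p = 0.0578) and without tumour 2 or 3. Hspa5 and Hsp90b1 differed by 0.04 ± 0.10 and 0.10 ± 0.09. Ddit3, Trib3 and Herpud1 were thus called higher and Dnajc3 called lower on both days, in 6 tumours that share no library between the days.

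Tumour by tumour, the median difference over the 14 ATF4 targets measured in both contrasts stood above that over the 11 ER chaperones in each of the 6 mixed tumours. On day 7 the medians were 0.50, 0.61 and 0.54 for ATF4 targets in tumours 2, 3 and 4, against −0.04, −0.09 and 0.29 for ER chaperones. On day 15 they were 0.34, 0.13 and 0.19 in tumours 1, 2 and 3, against −0.12, −0.11 and −0.03. The medians of all genes tested lay between −0.01 and 0.01 in these tumours. The ATF4 median on day 7 therefore ranged above that on day 15 without overlap, but the days differ in run as well. These medians describe lists that were chosen with results of these data known, and no test was run on them.

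**Figure D4:**
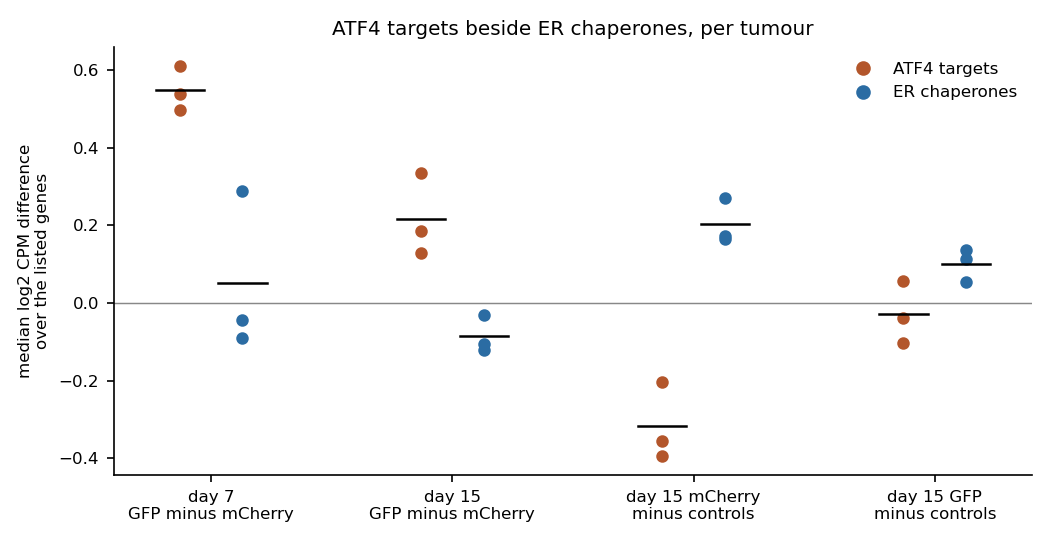
Median difference in log2 CPM over the ATF4 targets (14, or 15 against controls for mCherry cells) and over the 11 ER chaperones (y axis) for each of 4 comparisons (x axis). Each point is 1 tumour, or 1 day 15 library minus the mean of the 4 controls, and black bars are means over 3 points. The ATF4 median of day 15 mCherry cells against controls is −0.39, −0.20 and −0.36, with the ER chaperones at 0.17, 0.27 and 0.17.

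Whether the difference between GFP and mCherry cells itself changed from day 7 to day 15 was tested in the 12 mixed tumour libraries. Of 31 members, 0 were called in either direction, where 0.211% of the 16626 genes tested were. An unadjusted p under 0.05 was found for 7 of the 31 members, beside 10.2% of all genes tested. Those 7 were all ATF4 targets. The values of Asns (−0.66, SE 0.22, adjusted p = 0.304), Chac1 (−0.64, SE 0.25, adjusted p = 0.405), Aldh18a1 (−0.50, SE 0.13, adjusted p = 0.183), Phgdh (−0.48, SE 0.14, adjusted p = 0.230), Shmt2 (−0.47, SE 0.13, adjusted p = 0.210) and Mthfd2 (−0.44, SE 0.17, adjusted p = 0.391) were lower on day 15 (edgeR). Nupr1 lay the other way (0.57, SE 0.15, adjusted p = 0.159, edgeR). It was called by DESeq2 (adjusted p = 0.0122), with no filter on low counts and without day 7 tumour 4 (adjusted p = 0.0317), and with no filter Asns was called as well (adjusted p = 0.0135). Calls made on day 7 and not on day 15 are therefore not shown to differ between the days by the edgeR test.

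Levels also differed between the runs for several members, side by side and without a test, since day and run coincide. Ern1 was at 10.7 to 18.5 CPM in all day 7 libraries and 38.3 to 58.7 CPM in day 15 and control libraries. Atf4 was at 201 to 242 CPM against 295 to 373 CPM, and Atf6 at 44.1 to 59.0 CPM against 80.1 to 101 CPM. Sdf2l1 lay the other way, at 169 to 231 CPM against 45.6 to 89.3 CPM, as did Asns (80.5 to 188 against 28.9 to 63.4 CPM), Xbp1 (273 to 349 against 157 to 194 CPM) and Herpud1 (75.9 to 128 against 33.5 to 57.7 CPM). None of these ranges overlapped. They are examples: other members, such as Nupr1, separated as well, and the share of all genes that did so was not counted. The immediate early genes Fos, Jun, Egr1, Ier2 and Fosb, which cell dissociation is known to induce, summed to 2696 to 4064 CPM in day 7 libraries and 7509 to 10389.5 CPM in the others, and their part was not tested. On day 15 they also differed within tumours: 3 of 5 were called higher and 1 lower in GFP cells, beside the rises of Ddit3, Trib3, Sesn2 and Nupr1, with sums of 9448 to 10387 CPM against 7583 to 9778 CPM. On day 7, where 9 of 14 ATF4 targets rose, 0 of the 5 were called higher and 1 lower in GFP cells. Their sums there were 2721 to 4064 CPM against 2696 to 3563 CPM.

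Day 15 mCherry cells, which the T cells did not target, were set against mCherry cells of control tumours in the same run. The control tumours lacked both Jedi cells and GFP cells, and their age at harvest is not given by the labels. These differences cannot be told apart in any contrast with the controls. No member was called by edgeR, and 0% of the 14800 genes tested were, while 13 of 32 members and 14.2% of all genes had an unadjusted p under 0.05. All 14 ATF4 targets other than Vldlr had a negative log2 fold change. Vldlr, whose counts were close to 0, had a fitted value of −0.37 (SE 0.97), but each day 15 mCherry library lay above the mean of the controls in log2 CPM (by 0.71, 0.14 and 0.32), so that its sign turns with the scale. The median of the 15 was −0.37 against −0.0049 over all genes, and that of the 14 without Vldlr was also −0.37. All 11 ER chaperones had a positive value, with a median of 0.22. Psat1 was at 67.1, 62.2 and 63.6 CPM in day 15 mCherry cells and 95.0, 116, 79.0 and 113 CPM in controls 1 to 4, without overlap (−0.63, SE 0.12, adjusted p = 0.251, edgeR). Asns was at 28.9, 38.3 and 31.0 CPM against 49.0, 63.4, 38.7 and 54.4 CPM (−0.62, SE 0.16, adjusted p = 0.253), and Phgdh at 122, 132 and 133 CPM against 157, 172, 168 and 199 CPM (−0.40, SE 0.08, adjusted p = 0.251), both without overlap. Slc7a5, the leucine transporter, was at 120, 132 and 93.8 CPM against 174, 168, 171 and 151 CPM (−0.51, SE 0.12, adjusted p = 0.251). Hspa5 was at 4386, 5104 and 4489 CPM against 3992, 3513, 3656 and 4368 CPM, so that every day 15 library lay above every control (0.29, SE 0.10, adjusted p = 0.284, edgeR). DESeq2 called 166 genes higher and 96 lower in this comparison, with 5 members among them: Asns, Psat1, Phgdh and Slc7a5 were lower and Pdia6, a protein disulphide isomerase gene, was higher. The controls differed among themselves: the median deviation from the group mean over ER chaperones was 0.05, −0.14, −0.08 and 0.19 (log2) in controls 1 to 4, and over ATF4 targets 0.09, 0.08, −0.06 and 0.02. Fibroblast and pericyte markers summed to 991 to 1375 CPM in day 15 mCherry cells and to 1313 to 2227 CPM in controls, and macrophage markers to 86.0 to 105 against 77.0 to 191 CPM; their part was not tested.

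Day 15 GFP cells against the same controls shared libraries with both preceding contrasts, so that the values are given side by side and not as further support. Of 31 members tested, 4 rose, where 6.09% of all 14801 genes did, and 3 fell, where 6.97% did. Ddit3 rose by 0.59 ± 0.15 (adjusted p = 0.0367, edgeR), with controls at 44.5, 36.0, 32.3 and 27.7 CPM, all below the 49.7 to 52.8 CPM of the GFP cells. Dnajb9 rose by 0.74 ± 0.16 (adjusted p = 0.0253), with controls at 25.7, 24.6, 16.5 and 25.7 CPM, also without overlap. Hsp90b1, the ER member of the Hsp90 family, rose by 0.40 ± 0.11 (adjusted p = 0.0419) and Xbp1 by 0.27 ± 0.07 (adjusted p = 0.0389). In Hsp90b1, 10.3% of the exon bases lie in a gene on the other strand, and whether the counting used strand is not known from the sources used here. The genes that fell were Slc7a5 (−0.75, SE 0.09, adjusted p = 0.00568), Psat1 (−0.50, SE 0.13, adjusted p = 0.0415) and Shmt2 (−0.41, SE 0.08, adjusted p = 0.0203), all edgeR. Slc7a5 was at 92.0, 103 and 91.0 CPM in GFP cells, below all 4 controls.

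**Figure D5:**
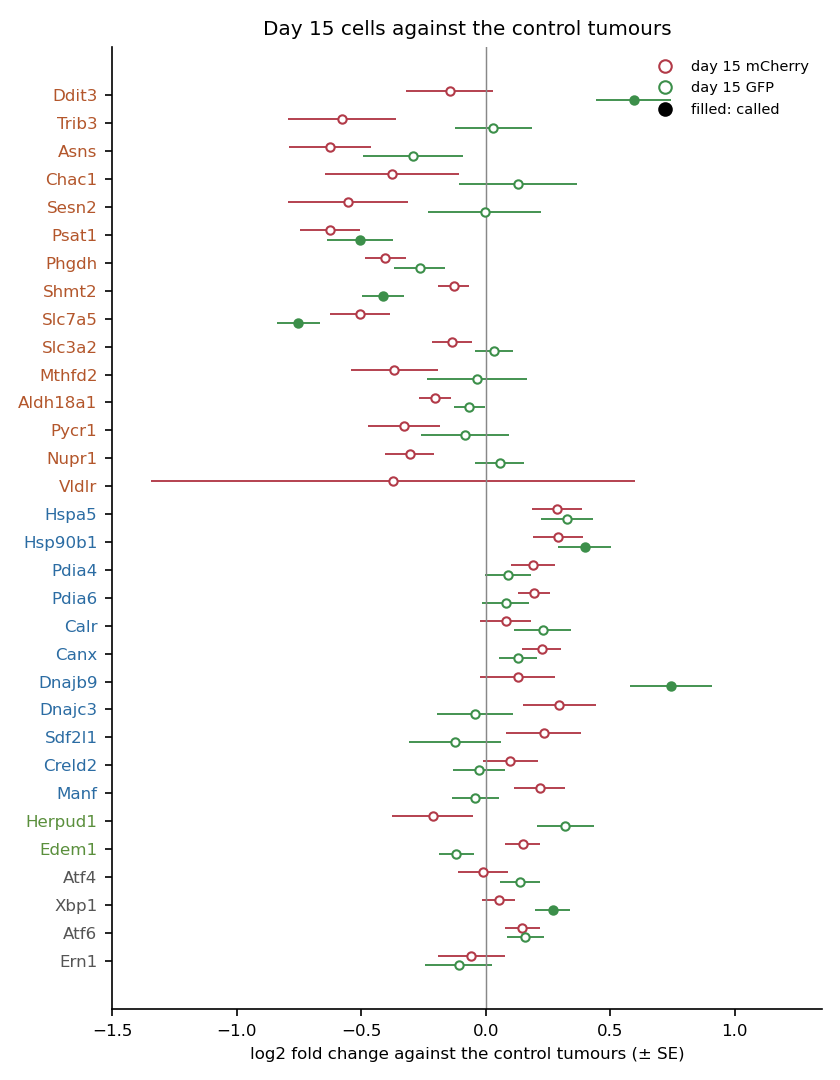
Log2 fold change of day 15 mCherry cells (red) and day 15 GFP cells (green) against the 4 control tumours (x axis, bars ± SE) for each member (y axis, coloured by role). Filled points are called at an adjusted p of 0.05. Red points of all 15 ATF4 targets lie below 0, Vldlr with a fitted −0.37 and an SE of 0.97, and those of all ER chaperones above. The green points of Ddit3 (0.59) and Slc7a5 (−0.75) lie furthest apart among the ATF4 targets.

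These calls were fragile, as were those over all genes. All genes gave 902 calls higher and 1031 lower in the reported fit. Without day 15 GFP library 1 they gave 140 and 147, and without library 2 they gave 244 and 276. Of the 7 members called, Slc7a5 alone was called in every fit that left out 1 library. Leaving out day 15 GFP library 1 or 2 ended the other 6, and leaving out GFP library 3 or control 2 ended 4 (Ddit3, Psat1, Hsp90b1 and Xbp1). Without control 3, Ddit3, Hsp90b1 and Xbp1 lost their calls, without control 1 Psat1 and Hsp90b1, and without control 4 Psat1 and Xbp1. The ATF4 targets that had risen in GFP against mCherry cells did not all exceed the controls: Trib3 differed by 0.03 ± 0.15, Sesn2 by 0.00 ± 0.23 and Nupr1 by 0.06 ± 0.10 from them. For these 3 genes the mCherry cells of the same tumours were at −0.58 ± 0.22, −0.55 ± 0.24 and −0.31 ± 0.10 against the controls. The median over ATF4 targets of GFP cells was −0.05 against the controls and that over ER chaperones 0.09.

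Other genes of the pathways were taken from a list of 89, of which 82 were tested on each day. On day 7, 18 of them rose and 5 fell, and on day 15, 10 of 82 rose and 10 fell. The shares over all genes tested were 8.89% higher and 9.33% lower on day 7 and 8.94% higher and 10.6% lower on day 15, so that the day 15 counts lie near the background. Cytosolic tRNA synthetases, many of which ATF4 induces, rose in 6 of 12 cases on day 7, led by Aars (0.79, SE 0.10, adjusted p = 6.95e-04) and Iars (0.50, SE 0.11, adjusted p = 0.0107). On day 15, 2 of 12 rose, Aars (0.46, SE 0.09) and Sars (0.39, SE 0.11). Of 21 further ATF4-linked genes tested on day 7, 7 rose and 1 fell. Among the rises were Slc7a1, a transporter of cationic amino acids (0.68, SE 0.13), and Gpt2, a mitochondrial aminotransferase (0.82, SE 0.16), while Ddit4, an inhibitor of mTORC1 that hypoxia also induces, fell by 1.91 on the log2 scale (SE 0.37, adjusted p = 0.00670, edgeR). On day 15, 4 rose, including Got1 (0.58, SE 0.13) and Slc6a9 (0.43, SE 0.08), and 3 fell, including Cth, which makes cysteine (−1.03, SE 0.19), and Ddit4 (−0.68, SE 0.08). The day 7 value of Ddit4 rests on low levels, 1.44 to 2.23 CPM in GFP cells and 4.05 to 11.4 CPM in mCherry cells.

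Of 16 other ER folding genes, 2 fell on day 7 (Hspa13 and Ero1l) and 14 did not pass, and on day 15 3 fell and 13 did not pass. The falls on day 15 included Hspa13 (−0.26, SE 0.08) and Txndc11 (−0.37, SE 0.09). Of 20 genes of ER translocation, degradation and sensing, 4 rose and 2 fell on day 7 and 3 rose and 3 fell on day 15. Wfs1, an ER membrane protein gene, rose on both days (0.76, SE 0.16, and 0.59, SE 0.09), and Sec61b, a subunit of the translocon, fell on both (−0.43, SE 0.10, and −0.33, SE 0.10). Of 13 genes of eIF2α, its kinases and phosphatase, its exchange factor eIF2B and Impact, 1 rose on day 7, Ppp1r15b (0.43, SE 0.10), a regulator of eIF2α dephosphorylation. On day 15 Impact, an inhibitor of the kinase GCN2, rose (0.42, SE 0.09) and Eif2s1, which encodes eIF2α itself, fell (−0.26, SE 0.08). Against the controls, day 15 GFP cells had 8 of 84 tested genes higher and 6 lower, beside 6.09% and 6.97% of all genes, with Slc7a11, the cystine transporter (−1.09, SE 0.17, adjusted p = 0.0106, edgeR), and Cth (−0.89, SE 0.15) among the latter.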

How the data were processed

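The 16 libraries were made from sorted 4T07 cells. The deposited raw counts were produced by the company that sequenced them, according to the labels' protocols. Per the submitters' processing notes, the build was mm10. Its aligner, counter, annotation and strand setting were not given in the sources used here. RNA was extracted with a column kit or by the company's low input protocol, per the labels' protocols, and which library had which was not given. The authors' deposited DESeq2 tables of fold changes were not used. Rows without a symbol (176, at most 0.011% of a library's counts) were left out. Day 7 columns are numbered 2 to 4 and their labels 1 to 3, so columns of day 7, like controls 1 to 4, were assigned by group.

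Low genes were removed by filterByExpr of edgeR (count 10, total 15). Libraries were scaled by TMM (factors 0.96 to 1.05) and tested with edgeR 4.0.16 (R 4.3.3), adjusted by Benjamini and Hochberg over all genes tested. The SE was taken as the size of the log2 fold change divided by the root of its F. Differences per tumour are of log2 CPM, prior count 2. GFP and mCherry cells were compared with tumour as a block, the controls without one. Day 15 pairs are given by the labels. Day 7 pairs rest on column numbers, where deviations of same-numbered libraries correlated at 0.110 to 0.162 and others at −0.130 to 0.00919; on day 15 the values were 0.0896 to 0.232 and −0.183 to 0.0186. Replicates differed beyond counting error (chi-square per degree of freedom 4.94 to 80.4), and nothing in the labels says more of their independence than separate tumour numbers. On simulated counts with 200 genes changed, the script was tested before use. Alternatives were DESeq2 1.42.0, its size factors, a filter of 50 counts or none, no block, a joint fit of run 2, prior counts of 0.5 and 5, and leaving out each tumour or library.

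Coordinates and exon lengths are from GENCODE M21 (GRCm38). The members and lists were chosen with earlier results of these data known. All members could be named, and of the 89 other pathway genes the 2 called genes of smallest p in each direction of each sublist.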

Additional observations from a re-analysis of the deposited data

Results flagged for a closer look

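Among the controls, 2 members had 1 library far from the other 3, by the ratio of its gap to the whole range (above Dixon's 95% critical value for 4 libraries). Chance alone flags about 1 in 20 groups, and 32 members were looked at. Calr, the gene of the lectin chaperone calreticulin, was at 1592 CPM in control 4 against 1217 to 1263 CPM in the others (ratio 0.877). Dnajb9, the gene of the co-chaperone ERdj4, was at 16.5 CPM in control 3 against 24.6 to 25.7 CPM (ratio 0.873). Without control 3, Dnajb9 stayed called in day 15 GFP cells against controls.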

How the results depend on the processing

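No result turned its direction while called. The number of members called higher stayed within 1.5 times of the reported one on both days under every alternative run. Those called lower did not: on day 7 (reported 1) there were 0 with DESeq2's size factors, 2 with no filter, 0 without the replicate block and 0 to 5 when 1 tumour was left out, and on day 15 (reported 4) there were 2 with DESeq2, 2 without the replicate block and 1 to 4 with 1 tumour left out. Without the block, Slc3a2 and Dnajc3 on day 7 and Trib3, Shmt2, Sdf2l1 and Herpud1 on day 15 lost their calls, leaving 9 and 4 called higher, and the block changed no other member's call. For day 15 mCherry cells against controls (reported 0), DESeq2 called 1 higher and 4 lower. For day 15 GFP cells against controls (reported 4 higher and 3 lower), leaving out 1 library gave 0 to 4 higher and 1 to 3 lower, the median over ATF4 targets ranged from −0.13 to 0.018 (reported −0.03 on the scale of library medians) and that over ER chaperones from 0.063 to 0.16 (reported 0.10). For the difference between days (reported 0), DESeq2 and no filter each called 1 higher, no filter called 1 lower, and leaving out 1 tumour gave 0 to 1 higher. The causes were not tested. Where 1 of 3 tumours was left out, fewer samples remain and fewer calls can follow from that alone. Vldlr was below the depth needed for a test, and p-values rest on 2 residual degrees of freedom within each day, with the spread shared over genes.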
